A study of Homo sapiens with 12 samples.

Results

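The lysosome genes described here are 44 listed genes for enzymes and carriers inside the lysosome, proteins of its membrane, the transcription factor TFEB and subunits of the vacuolar proton pump. They were chosen by name, but with earlier results of these data known. The list holds 22 genes for enzymes and luminal carriers, 7 for membrane proteins, TFEB, and 14 for the pump. Of the 44 genes, 42 were measured, among 19775 genes tested in all. GLB1 and ATP6V1F were not measured, because their probe sets carry a second gene symbol. RNA came from PC9, a human lung adenocarcinoma line that depends on mutant EGFR, and was hybridised to Affymetrix Hgu133plus2 arrays. A stable line made to express pre-miR-371, the hairpin from which cells cut miR-371-3p, was set beside a stable line that carried a GFP vector. Each line received erlotinib, which blocks the EGFR kinase, at 2 μM or DMSO for 24 h, with 3 arrays for each of the 4 groups: pre-miR-371 erlotinib, GFP vector erlotinib, pre-miR-371 DMSO and GFP vector DMSO. Each construct was present in 1 stable line, and effects of the construct and of that line cannot be told apart. The study's methods call its replicates biological in general, but neither they nor the labels say whether the 3 arrays per group represent separate cultures, so a p-value here reflects array-to-array spread, which may be in part technical.

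Lysosomes are acidic compartments in which proteases, glycosidases and lipid-cleaving enzymes break down material from endocytosis and autophagy. The vacuolar ATPase pumps protons into them: its V1 sector in the cytosol hydrolyses ATP and its V0 sector in the membrane carries the protons. TFEB and its relatives bind a sequence around CACGTG in the promoters of many of these genes and are held in the cytosol by mTORC1 when nutrients are ample.

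Values are log2 expression values as deposited, and differences are log2 fold changes with the standard error of a limma fit to all 12 arrays. A gene was called changed at an adjusted p under 0.05 over all 19775 genes. Array medians lay between 4.31 and 4.41 and upper quartiles between 6.72 and 6.92. Within a group, the correlation of arrays over all probe sets was 0.996 to 0.997. The epithelial markers KRT7, KRT8, KRT18, KRT19, EPCAM and CDH1 had group means of 10.7 to 13.7, as fits an epithelial line. Of 8 macrophage markers, ITGAM and LYZ rose with erlotinib in both lines. ITGAM averaged 5.96 in erlotinib and 4.68 in DMSO in pre-miR-371 cells, and 5.74 in erlotinib and 4.60 in DMSO in GFP vector cells. The median over the 8 markers was 4.30 to 4.41 on pre-miR-371 erlotinib arrays and 4.11 to 4.52 on GFP vector erlotinib arrays, against 3.58 to 3.77 and 3.66 to 4.08 on the DMSO arrays of the same lines. The markers PTPRC, CD14, CD163 and MRC1 had group means between 2.52 and 3.79, with none called. CSF1R and AIF1 lay above the array medians, with means of 4.94 and 5.08 over the 12 arrays, and were not called either. The part of these markers in the lysosome results was not tested. None of 6 fibroblast markers was called for erlotinib. Of the MAPK output genes DUSP6, EGR1, SPRY4, ETV5 and PHLDA1, all 5 fell with erlotinib in both lines, DUSP6 by 6.00 in pre-miR-371 cells and by 5.91 in GFP vector cells. The arrays are bulk RNA, in which fewer cells of a type and less RNA per cell cannot be told apart.

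The first question was which lysosome genes changed with erlotinib. In GFP vector cells, 31 of the 42 measured genes rose and 4 fell, whereas 26.5% of all genes tested rose and 23.4% fell. In pre-miR-371 cells, 30 rose and 6 fell, against 24.8% and 22.2% of all genes. With a fold over 1.5 as well, 20 rose and 1 fell in GFP vector cells, where 14.1% of all genes rose and 11.7% fell by that rule. The same rule gave 16 rises and 0 falls in pre-miR-371 cells, beside 12.6% and 9.33% of all genes. The 6 falls in pre-miR-371 cells at the adjusted p alone were those of GLA, NPC1, CLN3, ATP6V0B, ATP6V1D and ATP6V1B2. The median log2 fold change of the 42 genes was 0.38 in pre-miR-371 cells and 0.45 in GFP vector cells, while that of all genes was -0.03 and 0.0029. Genes whose mean log2 value reached 6 were also fitted and adjusted on their own, and calls were then more frequent. These calls are therefore not those made over all 19775 genes. Only CTSS, TFEB and ATP6V1B1 of the list had a mean log2 value under 6. Among the 9650 genes whose mean log2 value reached 6, 40.5% rose and 41.9% fell in GFP vector cells, and of the 39 lysosome genes with such a mean 31 rose and 5 fell. In pre-miR-371 cells 40.3% of those genes rose and 39.8% fell, and 29 of the 39 lysosome genes rose and 6 fell.

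**Figure D1:**
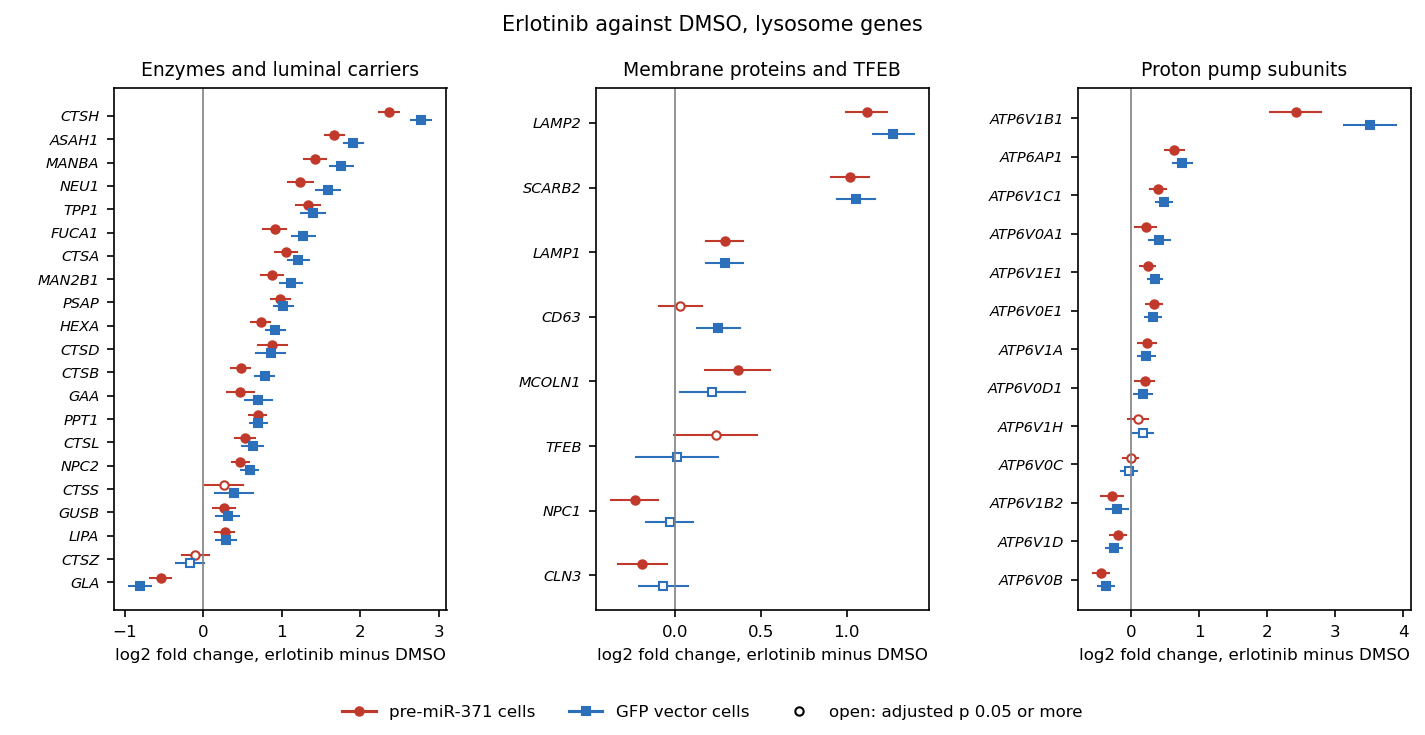
Log2 fold change of erlotinib against DMSO for each of the 42 measured lysosome genes, by role, in pre-miR-371 cells (red circles) and GFP vector cells (blue squares). Lines are 95% confidence intervals from the fit and open symbols are genes with an adjusted p of 0.05 or more; nearly all enzymes lie right of 0, while pump subunits other than ATP6V1B1 lie between -0.44 and 0.76.

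Of the 21 measured enzymes and luminal carriers, 18 rose and 1 fell in pre-miR-371 cells, with a median of 0.73, and 19 rose and 1 fell in GFP vector cells, with a median of 0.86. Of the 8 membrane proteins with TFEB, 4 rose and 2 fell in pre-miR-371 cells and 4 rose and 0 fell in GFP vector cells, with medians of 0.26 and 0.23. Of the 13 measured pump subunits, 8 rose and 3 fell in each line, with a median of 0.22 in both. With a gene's probe sets averaged, the pump median was 0.05 in pre-miR-371 cells and 0.18 in GFP vector cells. Whether the roles differ from one another was not tested.

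Among the proteases, the widest response was that of CTSH, a cysteine aminopeptidase that also processes a surfactant protein in lung cells. Its values were 11.78, 11.85 and 11.70 on pre-miR-371 erlotinib arrays and 12.34, 12.19 and 12.28 on GFP vector erlotinib arrays, against 9.45, 9.43 and 9.37 on pre-miR-371 DMSO arrays and 9.51, 9.49 and 9.47 on GFP vector DMSO arrays. Every erlotinib array lay above every DMSO array. The fold was 5.15 in pre-miR-371 cells (2.36 ± 0.06, adjusted p = 2.86e-11) and 6.85 in GFP vector cells (2.78 ± 0.06, adjusted p = 7.67e-12).

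TPP1, a serine peptidase that trims tripeptides from protein ends, read 8.54, 8.53 and 8.53 on pre-miR-371 erlotinib arrays and 8.89, 8.89 and 8.84 on GFP vector erlotinib arrays, against 7.22, 7.20 and 7.18 on pre-miR-371 DMSO arrays and 7.65, 7.38 and 7.38 on GFP vector DMSO arrays. CTSA, a carboxypeptidase that also protects the sialidase NEU1, read 10.68, 10.65 and 10.54 on pre-miR-371 erlotinib arrays and 10.95, 10.93 and 10.96 on GFP vector erlotinib arrays, against 9.60, 9.60 and 9.51 on pre-miR-371 DMSO arrays and 9.84, 9.70 and 9.67 on GFP vector DMSO arrays. Both genes rose over 2-fold in each line with no overlap, TPP1 by 1.33 ± 0.07 in pre-miR-371 cells and 1.40 ± 0.07 in GFP vector cells, and CTSA by 1.05 ± 0.06 and 1.21 ± 0.06.

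CTSB, a cysteine protease, read 8.73, 8.76 and 8.61 on pre-miR-371 erlotinib arrays and 9.0, 9.01 and 9.0 on GFP vector erlotinib arrays, against 8.20, 8.19 and 8.27 on pre-miR-371 DMSO arrays and 8.23, 8.21 and 8.22 on GFP vector DMSO arrays. It rose by 0.48 ± 0.05 in pre-miR-371 cells and 0.78 ± 0.05 in GFP vector cells, but with the brightest CTSB probe set free of a suffix for shared probes the change in pre-miR-371 cells was 0.19 and was not called (adjusted p = 0.0546). The aspartic protease CTSD rose by 0.88 ± 0.08 in pre-miR-371 cells and 0.86 ± 0.08 in GFP vector cells, and the cysteine protease CTSL by 0.53 ± 0.06 and 0.63 ± 0.06. CTSS, a cysteine protease of antigen-presenting cells, was dim, with group means of 4.07 to 4.46; it rose in GFP vector cells by 0.39 ± 0.11, and its change of 0.26 ± 0.11 in pre-miR-371 cells had an adjusted p of 0.0675, with no called difference between the responses (adjusted p = 0.765). CTSZ, a carboxypeptidase, was not called in either line, at -0.10 ± 0.08 and -0.17 ± 0.08.

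Of 8 measured glycosidases, which remove sugars from glycoproteins, glycolipids and glycans, 7 rose and GLA fell in each line. MANBA, the beta-mannosidase, read 8.34, 8.23 and 8.23 on pre-miR-371 erlotinib arrays and 8.64, 8.74 and 8.56 on GFP vector erlotinib arrays, against 6.89, 6.83 and 6.81 on pre-miR-371 DMSO arrays and 6.96, 6.89 and 6.82 on GFP vector DMSO arrays. NEU1, the sialidase, read 8.38, 8.45 and 8.29 on pre-miR-371 erlotinib arrays and 9.0, 8.96 and 8.83 on GFP vector erlotinib arrays, against 7.07, 7.18 and 7.15 on pre-miR-371 DMSO arrays and 7.41, 7.37 and 7.24 on GFP vector DMSO arrays. MANBA rose 2.68-fold in pre-miR-371 cells and 3.38-fold in GFP vector cells, and NEU1 2.36-fold and 3.01-fold, with no overlap between treatments.

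FUCA1, the alpha-fucosidase, read 8.73, 8.80 and 8.71 on pre-miR-371 erlotinib arrays and 9.33, 9.10 and 9.28 on GFP vector erlotinib arrays, against 7.80, 7.89 and 7.82 on pre-miR-371 DMSO arrays and 8.0, 8.0 and 7.90 on GFP vector DMSO arrays. MAN2B1, the alpha-mannosidase, read 7.98, 8.03 and 7.85 on pre-miR-371 erlotinib arrays and 8.24, 8.13 and 8.24 on GFP vector erlotinib arrays, against 7.05, 7.08 and 7.10 on pre-miR-371 DMSO arrays and 7.11, 7.14 and 7.02 on GFP vector DMSO arrays. HEXA, the alpha subunit of beta-hexosaminidase, read 9.69, 9.65 and 9.60 on pre-miR-371 erlotinib arrays and 10.07, 10.06 and 10.04 on GFP vector erlotinib arrays, against 8.90, 8.97 and 8.88 on pre-miR-371 DMSO arrays and 9.18, 9.18 and 9.06 on GFP vector DMSO arrays. These 3 genes rose by 0.73 to 0.91 in pre-miR-371 cells and by 0.92 to 1.27 in GFP vector cells. With dimmer HEXA probe sets free of a suffix, its changes of 0.36 and 0.25 were not called. GAA, the acid alpha-glucosidase that degrades glycogen, rose by 0.47 ± 0.08 in pre-miR-371 cells and 0.70 ± 0.08 in GFP vector cells, and GUSB, the beta-glucuronidase, by 0.26 ± 0.07 and 0.31 ± 0.07. With the mean of its probe sets, of which the second is dim at a mean of 4.09, GUSB had 0.04 in pre-miR-371 cells and was not called there. The exception was GLA, the alpha-galactosidase, which fell by 0.54 (SE 0.06, adjusted p = 1.09e-05) in pre-miR-371 cells and by 0.81 (SE 0.06, adjusted p = 2.41e-07) in GFP vector cells.

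All 5 genes of lipid breakdown and luminal carriage rose in both lines. ASAH1, the acid ceramidase, read 11.59, 11.65 and 11.72 on pre-miR-371 erlotinib arrays and 11.80, 11.77 and 11.81 on GFP vector erlotinib arrays, against 9.91, 10.02 and 10.03 on pre-miR-371 DMSO arrays and 9.89, 9.90 and 9.87 on GFP vector DMSO arrays, which are rises of 3.18-fold and 3.76-fold. This probe set carries a suffix that marks probes shared with other transcripts, and 3 further ASAH1 probe sets rose by 1.13 to 2.09 as well, while another, with a mean log2 value of 2.72, was not called. NPC2, which carries cholesterol in the lumen, read 12.60, 12.64 and 12.61 on pre-miR-371 erlotinib arrays and 12.82, 12.74 and 12.83 on GFP vector erlotinib arrays, against 12.15, 12.18 and 12.11 on pre-miR-371 DMSO arrays and 12.24, 12.21 and 12.18 on GFP vector DMSO arrays. It rose by 0.47 ± 0.05 in pre-miR-371 cells and 0.59 ± 0.05 in GFP vector cells. PSAP, the precursor of the saposins that present lipids to hydrolases, rose by 0.98 ± 0.06 in pre-miR-371 cells and 1.02 ± 0.06 in GFP vector cells, the thioesterase PPT1 by 0.69 ± 0.05 and 0.70 ± 0.05, and LIPA, the acid lipase, by 0.27 ± 0.06 and 0.28 ± 0.06. With the mean of its probe sets, of which the second is dim, LIPA had 0.06 and 0.07 and was not called.

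**Figure D2:**
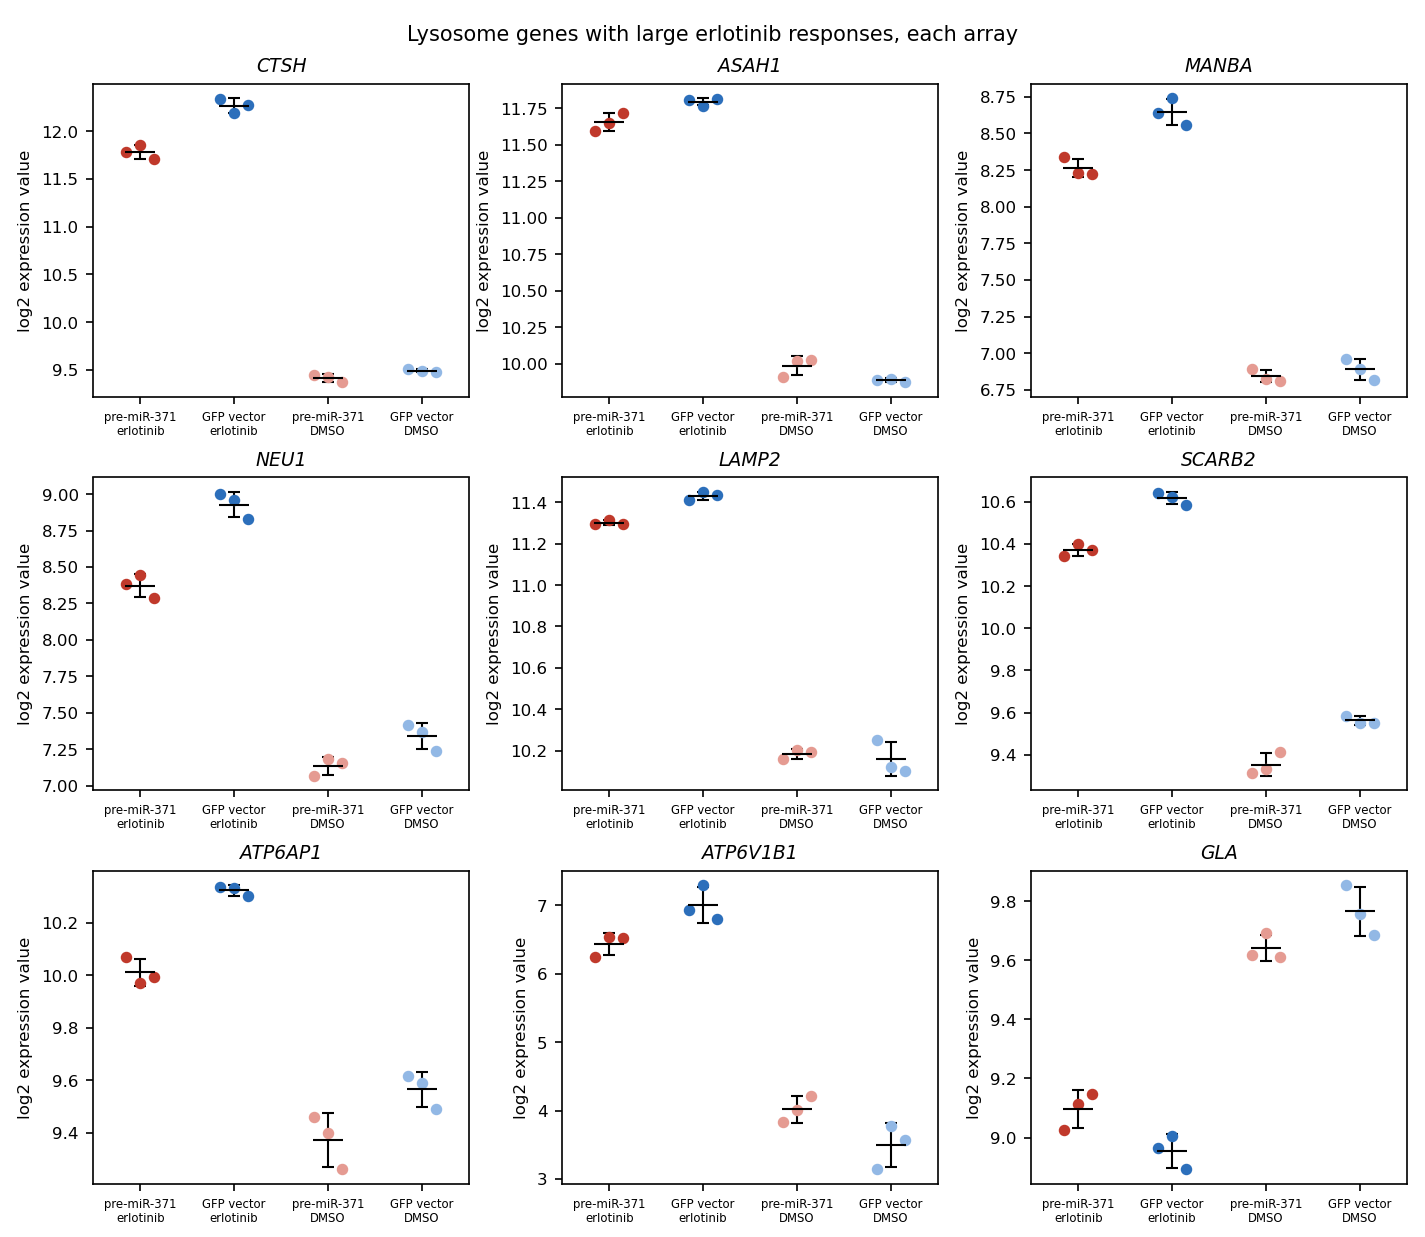
Log2 expression value on each array (points) with the group mean and SD (bars, n = 3) for lysosome genes with large erlotinib responses, in the order pre-miR-371 erlotinib, GFP vector erlotinib, pre-miR-371 DMSO and GFP vector DMSO. Each axis has its own range and none starts at 0; the erlotinib arrays lie above the DMSO arrays in every panel but that of GLA, where they lie below.

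Membrane proteins moved less evenly. LAMP2, a glycoprotein that lines the lysosomal membrane, read 11.30, 11.31 and 11.29 on pre-miR-371 erlotinib arrays and 11.41, 11.45 and 11.44 on GFP vector erlotinib arrays, against 10.16, 10.20 and 10.19 on pre-miR-371 DMSO arrays and 10.25, 10.12 and 10.10 on GFP vector DMSO arrays. SCARB2, the receptor that brings glucocerebrosidase to lysosomes, read 10.34, 10.40 and 10.37 on pre-miR-371 erlotinib arrays and 10.64, 10.62 and 10.59 on GFP vector erlotinib arrays, against 9.31, 9.33 and 9.41 on pre-miR-371 DMSO arrays and 9.59, 9.55 and 9.55 on GFP vector DMSO arrays. Both rose over 2-fold, LAMP2 by 1.12 ± 0.05 in pre-miR-371 cells and 1.27 ± 0.05 in GFP vector cells and SCARB2 by 1.02 ± 0.05 and 1.05 ± 0.05. The related LAMP1 read 12.44, 12.46 and 12.49 on pre-miR-371 erlotinib arrays and 12.59, 12.58 and 12.60 on GFP vector erlotinib arrays, against 12.16, 12.22 and 12.13 on pre-miR-371 DMSO arrays and 12.33, 12.30 and 12.27 on GFP vector DMSO arrays. Its rise was 0.29 ± 0.05 in both lines, with no overlap between erlotinib and DMSO arrays of a line.

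The tetraspanin CD63 read 11.06, 11.06 and 11.08 on pre-miR-371 erlotinib arrays and 11.18, 11.10 and 11.17 on GFP vector erlotinib arrays, against 11.04, 11.01 and 11.05 on pre-miR-371 DMSO arrays and 10.80, 10.91 and 10.99 on GFP vector DMSO arrays. It was called in GFP vector cells only (0.25 ± 0.06), at 0.03 ± 0.06 in pre-miR-371 cells, and the difference between these responses was not called (adjusted p = 0.224). MCOLN1, a calcium channel of the lysosome, had changes of 0.37 ± 0.09 in pre-miR-371 cells, where it was called, and 0.22 ± 0.09 in GFP vector cells, where the adjusted p was 0.0556, and the difference of responses was not called (adjusted p = 0.631). The transporter NPC1, which exports cholesterol, and CLN3, whose loss causes a neuronal storage disease, fell in pre-miR-371 cells by 0.23 and 0.19, and were at -0.03 ± 0.06 and -0.07 ± 0.07 in GFP vector cells, with adjusted p of 0.308 and 0.598 for the difference of responses. The call of CLN3 was lost without pre-miR-371 DMSO replicate 1 or 2 or pre-miR-371 erlotinib replicate 3 (adjusted p up to 0.11) and after repeated quantile normalization (0.0525). That of NPC1 was lost with the mean of all probe sets (-0.0067), of which the others are dim, with means of 2.51 to 4.27. TFEB itself was near the dim end, with group means of 5.68 to 5.92, and its changes of 0.24 ± 0.11 in pre-miR-371 cells and 0.01 ± 0.11 in GFP vector cells were not called. A second TFEB probe set gave 0.48 in pre-miR-371 cells (adjusted p = 0.00089 with every probe set tested) and 0.12 in GFP vector cells (adjusted p = 0.33).

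In the pump, ATP6V1B1 had the largest measured change, and it is the V1 B subunit best known from kidney and inner ear. It read 6.25, 6.53 and 6.53 on pre-miR-371 erlotinib arrays and 6.93, 7.29 and 6.80 on GFP vector erlotinib arrays, against 3.83, 4.01 and 4.22 on pre-miR-371 DMSO arrays and 3.14, 3.78 and 3.57 on GFP vector DMSO arrays. The measured change was 2.42 ± 0.17 in pre-miR-371 cells (adjusted p = 1.54e-07) and 3.51 ± 0.17 in GFP vector cells (adjusted p = 4.42e-09). All 6 DMSO values lay below the lowest array median of 4.31, so the sizes of these changes are uncertain and no fold is given. A second, dimmer ATP6V1B1 probe set showed no called change, at 0.10 in pre-miR-371 cells and -0.04 in GFP vector cells. The other B subunit, ATP6V1B2, which most cells use, fell by 0.27 in pre-miR-371 cells and by 0.20 in GFP vector cells. The call in GFP vector cells was lost without any 1 of 4 arrays, DMSO replicate 1 or 2 or erlotinib replicate 2 or 3 (adjusted p up to 0.132), with only the groups compared (0.0828) and by the methods' t-test (0.132).

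ATP6AP1, an accessory subunit needed to assemble the pump, read 10.07, 9.97 and 9.99 on pre-miR-371 erlotinib arrays and 10.34, 10.33 and 10.30 on GFP vector erlotinib arrays, against 9.46, 9.40 and 9.26 on pre-miR-371 DMSO arrays and 9.62, 9.59 and 9.49 on GFP vector DMSO arrays. ATP6V1C1, the V1 subunit C, read 10.38, 10.32 and 10.26 on pre-miR-371 erlotinib arrays and 10.34, 10.39 and 10.30 on GFP vector erlotinib arrays, against 9.93, 9.93 and 9.91 on pre-miR-371 DMSO arrays and 9.92, 9.82 and 9.84 on GFP vector DMSO arrays. ATP6V0A1, a membrane subunit through which protons pass, read 7.41, 7.33 and 7.50 on pre-miR-371 erlotinib arrays and 7.56, 7.57 and 7.50 on GFP vector erlotinib arrays, against 7.21, 7.13 and 7.24 on pre-miR-371 DMSO arrays and 7.02, 7.25 and 7.12 on GFP vector DMSO arrays. ATP6AP1 rose by 0.64 ± 0.06 in pre-miR-371 cells and 0.76 ± 0.06 in GFP vector cells, ATP6V1C1 by 0.39 ± 0.05 and 0.49 ± 0.05, and ATP6V0A1 by 0.22 ± 0.07 and 0.42 ± 0.07. The call of ATP6V0A1 in pre-miR-371 cells was lost without DMSO replicate 2 or erlotinib replicate 3, with an adjusted p of up to 0.0861, and after repeated quantile normalization (0.119). With the mean of its probe sets, of which the second is dim at a mean of 4.17, ATP6V0A1 was not called in either line, at 0.05 and 0.19.

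The remaining pump genes moved less. The V0 subunit ATP6V0E1 rose by 0.34 in pre-miR-371 cells and 0.32 in GFP vector cells, and the catalytic V1 subunit ATP6V1A by 0.24 and 0.22. A second, dimmer ATP6V1A probe set went the other way, at -0.20 (adjusted p = 0.30 with every probe set tested) and -0.39 (adjusted p = 0.037), and the mean of both probe sets was not called in either line. ATP6V0D1, which joins the sectors, rose by 0.20 in pre-miR-371 cells and 0.18 in GFP vector cells, and both calls were fragile. That in pre-miR-371 cells was lost without DMSO replicate 3 or erlotinib replicate 1 or 2 (adjusted p up to 0.0634), and that in GFP vector cells without DMSO replicate 2 or 3 or erlotinib replicate 1 or 2 (up to 0.103), and both were lost with arrays centred on medians (0.0567 and 0.17). The proteolipid subunit ATP6V0B fell by 0.44 (SE 0.05) in pre-miR-371 cells and by 0.37 (SE 0.05) in GFP vector cells, and the V1 stalk subunit ATP6V1D fell by 0.19 and by 0.25. The proteolipid ATP6V0C, at -0.0021 and -0.02, and the V1 subunit ATP6V1H, at 0.10 and 0.17, were not called. Subunits of 1 enzyme thus had changes of both signs under the same drug.

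The second question was whether the lines differed, and ATP6V1E1, a V1 stalk subunit, is the listed pump gene among the targets that the study predicted for miR-371-3p. ATP6V1G3, another predicted target outside the list, had group means of 3.08 to 3.24 and was not called in any comparison. The mature miRNA is hsa-miR-371a-3p in RefSeq (GRCh38.p14, chr19:53787716-53787738, plus strand), shown here with its seed, bases 2 to 8, in capitals because target prediction rests on those bases.
hsa-miR-371a-3p: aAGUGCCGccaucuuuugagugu
The predicted site in ATP6V1E1 was not analysed here, and neither was the level of the miRNA. ATP6V1E1 read 9.48, 9.46 and 9.46 on pre-miR-371 erlotinib arrays against 9.63, 9.66 and 9.65 on GFP vector erlotinib arrays. In DMSO it read 9.21, 9.22 and 9.22 on pre-miR-371 arrays against 9.35, 9.28 and 9.24 on GFP vector arrays. The lines did not overlap in either condition. In erlotinib the pre-miR-371 line was lower by 0.18 (SE 0.05, 95% interval -0.29 to -0.07, adjusted p = 0.0271), a 1.13-fold difference, and in DMSO the difference of -0.07 ± 0.05 was not called (interval -0.18 to 0.03, adjusted p = 0.398). The exact two-sided permutation test over 3 against 3 arrays gave p = 0.1 in each condition, the smallest it can give. ATP6V1E1 rose with erlotinib in both lines, by 0.25 ± 0.05 in pre-miR-371 cells and 0.36 ± 0.05 in GFP vector cells, and the difference of responses was not called (-0.11 ± 0.07, interval -0.26 to 0.04, adjusted p = 0.513). The call between the lines in erlotinib did not survive the removal of any 1 of the 6 erlotinib arrays (adjusted p = 0.0507 to 0.0793), when every probe set was tested (0.0625), with only the groups compared (0.0712) and with arrays centred on their medians (0.069).

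In erlotinib, the pre-miR-371 line had lower values of 17 of the 42 genes and higher values of 0, where 9.46% of all genes were lower and 6.5% higher. In DMSO 4 were lower and 0 higher, beside 3.64% and 1.62% of all genes. At an unadjusted p under 0.05, 1 was higher in erlotinib and 2 were higher in DMSO, and the methods' t-test gave 1 and 0 at that threshold. Shares of all genes at that threshold are not given here. With a fold over 1.5 added, 0 of the 42 were called in either condition. The median difference of the 42 genes was -0.175 in erlotinib, with 4 of 42 above zero, against -0.0147 for all genes and -0.18 for ATP6V1E1, and -0.09 in DMSO against -0.0013. Among genes whose mean log2 value reached 6, fitted and adjusted on their own, 24.4% were lower and 15% higher in erlotinib. By that fit, 26 of 39 lysosome genes were lower and 0 higher. In DMSO, by the same fit, 17% of those genes were lower and 4.73% higher, and 13 of the 39 lysosome genes were lower and 0 higher. The line comparison in erlotinib shares its arrays with the erlotinib comparisons. The balance of calls over all genes between the lines depended on the scaling: in DMSO 30.8% of called genes were higher in the pre-miR-371 line with the values as deposited, and 53.8% after the arrays were quantile normalized again.

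**Figure D3:**
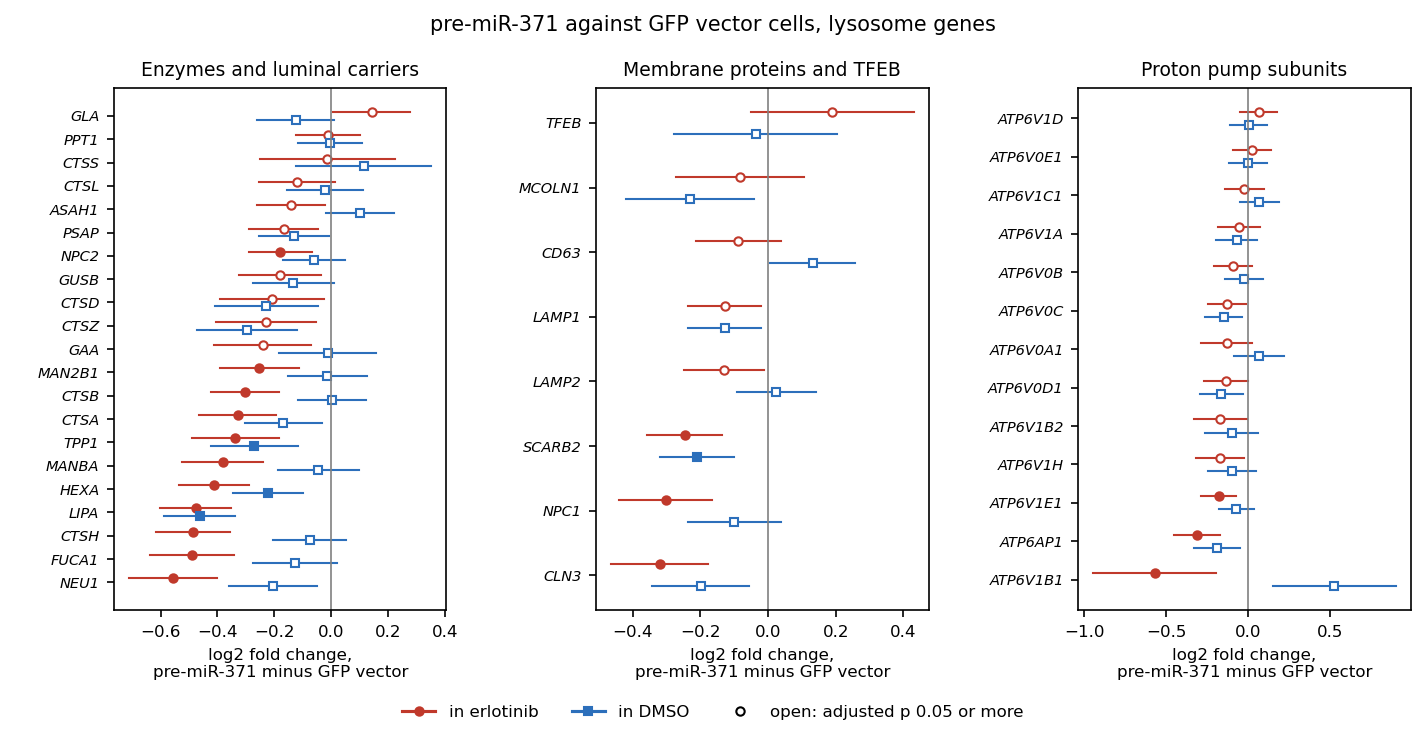
Log2 fold change of the pre-miR-371 line against the GFP vector line for the 42 measured lysosome genes, by role, in erlotinib (red circles) and in DMSO (blue squares), with 95% confidence intervals. Open symbols are genes with an adjusted p of 0.05 or more; 17 filled symbols in erlotinib and 4 in DMSO all lie left of 0.

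LIPA, the acid lipase that frees cholesterol and fatty acids, was lower in the pre-miR-371 line in both conditions. It read 9.88, 9.90 and 9.96 on pre-miR-371 erlotinib arrays against 10.43, 10.39 and 10.35 on GFP vector erlotinib arrays, and 9.71, 9.65 and 9.58 on pre-miR-371 DMSO arrays against 10.14, 10.14 and 10.04 on GFP vector DMSO arrays. The line difference, 0.48 in erlotinib (SE 0.06, adjusted p = 0.000389) and 0.46 in DMSO (SE 0.06, adjusted p = 0.00179), was larger than the rise of LIPA with erlotinib. Both line calls of LIPA held without any 1 of the 12 arrays, but that in DMSO was lost with the mean of its probe sets (-0.23, adjusted p = 0.0534) and by the methods' t-test after adjustment (0.077). The 3 other genes lower in DMSO were TPP1 by 0.27, HEXA by 0.22 and SCARB2 by 0.21, with adjusted p of 0.0467, 0.0449 and 0.0372. All 3 calls were lost when the arrays were quantile normalized again. They were also lost on leaving out 1 array: for TPP1 any array but GFP vector DMSO replicate 3, for HEXA any but that one and pre-miR-371 erlotinib replicate 3, and for SCARB2 any but GFP vector DMSO replicate 3, GFP vector erlotinib replicate 1 and pre-miR-371 erlotinib replicates 1 and 3 (adjusted p up to 0.151). With probe sets free of a suffix for shared probes, TPP1 and HEXA changed sign between the lines, to 0.11 and 0.06 in DMSO and to 0.03 and 0.16 in erlotinib, and were not called in either condition. These probe sets were dim, with means of 5.32 for TPP1 and 4.40 for HEXA over the 12 arrays.

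Of the 17 genes with lower values in the pre-miR-371 line in erlotinib, 5 were glycosidases and 4 were proteases. NEU1 was lower by 0.56 (SE 0.07), FUCA1 by 0.49 (SE 0.07), HEXA by 0.41 (SE 0.06), MANBA by 0.38 (SE 0.065) and MAN2B1 by 0.25 (SE 0.06). The proteases CTSH, TPP1, CTSA and CTSB were lower by 0.49, 0.34, 0.33 and 0.30. In the per-array values given above, no pre-miR-371 erlotinib array reached the lowest GFP vector erlotinib array in any of these 9 genes. They were picked by their calls on these same arrays, so the lack of overlap adds no support. Listed genes without a call of the chosen probe set, among them GAA, GUSB and PSAP, did not overlap between the lines in erlotinib either. The share of all genes without overlap is not given here. The calls of HEXA and TPP1 were lost with the dim suffix-free probe sets given above. That of HEXA was also lost with the mean of its probe sets (-0.08), of which the others are dim. A second TPP1 probe set with a suffix, with a mean of 6.89, was lower by 0.41 (adjusted p = 0.021 with every probe set tested). Another, with a mean of 4.34, had -0.13 and was not called. NPC2 was lower by 0.18 (adjusted p = 0.0334), SCARB2 by 0.25 (not called with the mean of its probe sets, at -0.13), and ATP6AP1 by 0.31 (SE 0.06, adjusted p = 0.00734). Probe sets of some genes disagreed in this comparison, with every probe set tested: LAMP1 was not called with its brightest probe set (-0.13), but its other 3 were lower by 0.26, 0.46 and 0.50. LAMP2 was not called with its brightest probe set either, and had 1 other probe set higher by 0.40 and 1 lower by 0.31. A further ASAH1 probe set was lower by 0.55, against -0.14 with the brightest. The second PSAP probe set was lower by 0.365 (adjusted p = 0.0055), against -0.17 with the brightest, and in DMSO by 0.27 (adjusted p = 0.048).

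NPC1 read 7.99, 7.98 and 8.15 on pre-miR-371 erlotinib arrays against 8.42, 8.34 and 8.27 on GFP vector erlotinib arrays, and 8.32, 8.25 and 8.26 on pre-miR-371 DMSO arrays against 8.36, 8.40 and 8.36 on GFP vector DMSO arrays. CLN3 read 8.36, 8.34 and 8.23 on pre-miR-371 erlotinib arrays against 8.55, 8.72 and 8.62 on GFP vector erlotinib arrays, and 8.52, 8.53 and 8.45 on pre-miR-371 DMSO arrays against 8.67, 8.78 and 8.65 on GFP vector DMSO arrays. In erlotinib both had lower values in the pre-miR-371 line, by 0.30 and 0.32, and in both the pre-miR-371 erlotinib arrays were the lowest of the 4 groups. ATP6V1B1 was lower by 0.57 in erlotinib (SE 0.17, adjusted p = 0.0433), while in DMSO its difference was 0.52 ± 0.17 and was not called (adjusted p = 0.101). Its call in erlotinib was lost without any 1 of 7 arrays, namely GFP vector DMSO replicate 3, pre-miR-371 DMSO replicate 2, GFP vector erlotinib replicates 1 and 2 and all 3 pre-miR-371 erlotinib arrays (adjusted p up to 0.148), and it was lost with every probe set tested (0.0505). That of NPC2 was lost without any 1 of 6 arrays, namely GFP vector DMSO replicate 2, GFP vector erlotinib replicates 1 and 3 and all 3 pre-miR-371 erlotinib arrays (up to 0.097), with only the groups compared and with centred arrays, and that of MAN2B1 without GFP vector erlotinib replicate 1 or 3 or pre-miR-371 erlotinib replicate 3 (up to 0.077) and with only the groups compared. By the methods' t-test after adjustment, MANBA, MAN2B1, NPC2, NPC1, CLN3 and ATP6V1B1 were not called between the lines in erlotinib.

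**Figure D4:**
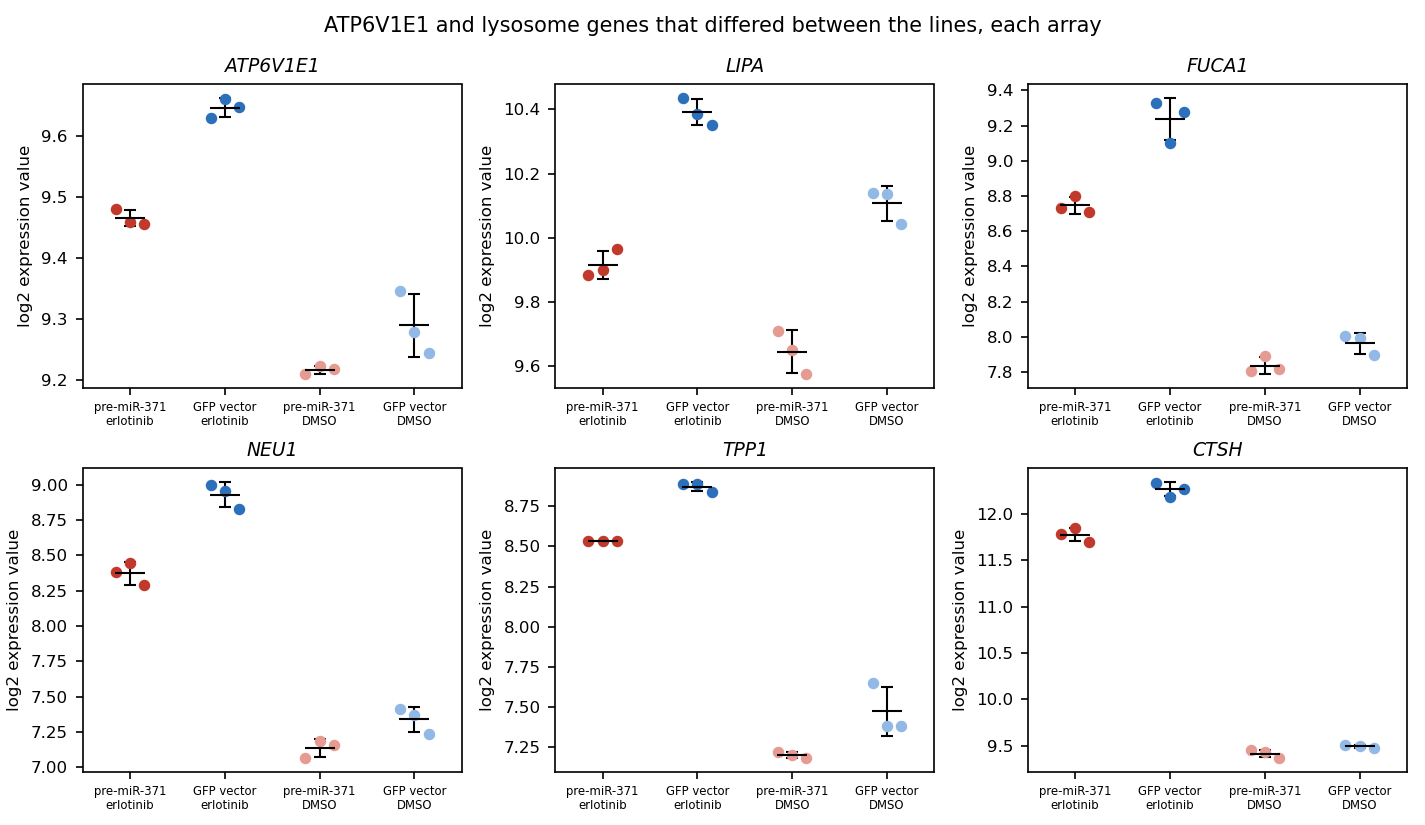
Log2 expression value on each array (points) with the group mean and SD (bars, n = 3) for ATP6V1E1 and 5 lysosome genes with lower values in the pre-miR-371 line in erlotinib. Each axis has its own range and none starts at 0, so the small difference of ATP6V1E1 (0.18) fills its panel as the larger ones of LIPA (0.48) and NEU1 (0.56) do theirs.

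The third question was whether the erlotinib response itself differed between the lines. The difference of responses, pre-miR-371 minus GFP vector, was called for 2 of the 42 genes, both negative, where 0.561% of all genes had a negative and 1.44% a positive difference. Of all called differences 71.9% were positive with the values as deposited, and 58.5% after the arrays were quantile normalized again. At an unadjusted p under 0.05, 11 of the 42 were negative and 1 was positive. The share of all genes at that threshold is not given here, so no excess is read from these counts. CTSH rose less in the pre-miR-371 line (2.36 against 2.78, difference -0.41 ± 0.08, adjusted p = 0.0304). For ATP6V1B1 the measured difference was -1.09 ± 0.24 (adjusted p = 0.0431), but its DMSO values, which lay below every array median and differed between the lines by 0.52 without a call, enter it, and its second probe set gave 0.14 (adjusted p = 0.782), so a smaller rise is not shown. The call of CTSH was lost without any 1 of 9 arrays, all but GFP vector DMSO replicate 1, GFP vector erlotinib replicate 2 and pre-miR-371 erlotinib replicate 2 (adjusted p up to 0.0821), with every probe set tested (0.0651) and with centred arrays (0.0831). That of ATP6V1B1 was lost without any 1 of 11 arrays, all but GFP vector DMSO replicate 2 (up to 0.107), with every probe set tested (0.058) and with the mean of its probe sets (-0.48, adjusted p = 0.135). For FUCA1, NEU1 and MANBA, whose line differences in erlotinib were called, the differences of responses were -0.36 ± 0.10, -0.35 ± 0.10 and -0.34 ± 0.09, with adjusted p of 0.0863, 0.106 and 0.0952. LIPA had a difference of -0.01 ± 0.08, with an interval of -0.19 to 0.16. Over the 42 genes the median difference of responses was -0.09, with 10 above zero, against -0.0145 over all genes.

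Promoter sequences from RefSeq (GRCh38.p14, windows of 300 bases that span a start site) were matched for 32 of the 44 genes. The core CACGTG, a palindrome and so the same on both strands, lay in at least 1 window of 10 of the 32 genes (31.2%), beside 8.77% of the 27305 genes in the table. GTCACGTG, searched on both strands and containing that core, lay in 8 of the 32 (25%), beside 2.93% of all genes. The stretches that hold the core in 6 genes of different response are printed to show the sequence that the shares count, with every CACGTG in capitals. Of these genes CLN3 fell with erlotinib in pre-miR-371 cells and ATP6V0B fell in both lines.
GAA, chr17:80101493-80101567, plus strand: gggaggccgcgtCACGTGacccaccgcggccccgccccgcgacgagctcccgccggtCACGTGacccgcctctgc
CTSA, chr20:45891281-45891327, plus strand: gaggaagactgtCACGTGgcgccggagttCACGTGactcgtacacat
LAMP1, chr13:113297035-113297114, plus strand: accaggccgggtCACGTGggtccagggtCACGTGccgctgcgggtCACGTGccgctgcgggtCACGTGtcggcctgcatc
MCOLN1, chr19:7522571-7522627, plus strand: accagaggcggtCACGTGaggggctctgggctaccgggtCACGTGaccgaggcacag
CLN3, chr16:28492058-28492116, minus strand: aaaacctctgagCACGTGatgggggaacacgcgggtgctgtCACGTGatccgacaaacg
ATP6V0B, chr1:43974891-43974938, plus strand: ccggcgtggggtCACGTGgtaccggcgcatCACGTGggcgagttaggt
The other 4 genes with the core were CTSD, NEU1, CD63 and ATP6V0D1. Of the 10 with it, 7 rose and 2 fell in pre-miR-371 cells and 7 rose and 1 fell in GFP vector cells, with medians of 0.33 and 0.27. Of the 20 measured genes without it in these windows, 14 rose and 3 fell in pre-miR-371 cells and 14 rose and 2 fell in GFP vector cells, with medians of 0.37 and 0.50. LAMP1, with 6 copies in its window, rose by 0.29 in both lines, and ATP6V0B, with 2, fell in both. CTSA, with 2, rose by 1.05 in pre-miR-371 cells and 1.21 in GFP vector cells, and NEU1, with 1, by 1.24 and 1.59. CTSH, whose window holds none, had the largest enzyme response. Whether the core bears on the response was not tested. A match is a description of letters and no evidence of binding.

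Lysosome genes outside the list were counted the same way, from lists made by role. The counts below stand beside 24.8% of all genes that rose and 22.2% that fell in pre-miR-371 cells. In GFP vector cells these shares were 26.5% and 23.4%. Among genes whose mean log2 value reached 6, they were 40.3% and 39.8% in pre-miR-371 cells and 40.5% and 41.9% in GFP vector cells. Those genes were fitted and adjusted on their own, while the counts below come from the fit to all genes. Of 26 measured further enzymes and related proteins, such as GM2A and GLMP, 20 rose and 2 fell with erlotinib in pre-miR-371 cells. In GFP vector cells 20 rose and 1 fell, and the medians were 0.64 and 0.82. The cysteine protease CTSO rose by 2.67 and 3.05, the acid nuclease DNASE2 by 1.32 and 1.63, and the mannosidase MAN2B2 by 1.24 and 1.56. CTSO was dim, with a mean of 4.86 over the 12 arrays and lower values in DMSO, so the sizes of its changes are uncertain. Of 19 sorting genes, which deliver enzymes to lysosomes, 11 rose and 4 fell in pre-miR-371 cells and 11 rose and 5 fell in GFP vector cells.

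Of 14 measured further pump subunits and assembly factors, 8 rose and 2 fell in pre-miR-371 cells and 7 rose and 3 fell in GFP vector cells. ATP6V1C2, a tissue-restricted form of subunit C, rose by 1.62 and 1.77, and it was higher in the pre-miR-371 line by 1.28 in erlotinib and 1.42 in DMSO, while none of the listed subunits was called higher there. ATP6V1C2 was dim, with a mean of 5.65 over the 12 arrays and its lowest values in GFP vector DMSO. The sizes of its rise in GFP vector cells and of its line difference in DMSO are therefore uncertain. ATP6V0A2, a form of subunit a, fell by 1.23 and by 1.44. Of 19 measured further membrane proteins, 10 rose and 3 fell in pre-miR-371 cells and 12 rose and 4 fell in GFP vector cells, among them SIDT2, which rose by 1.46 and 1.75, and LAPTM5, which fell by 1.98 and by 1.43.

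Among 20 measured genes of the TFE factors and of mTORC1 signalling at the lysosome, 10 rose and 6 fell in pre-miR-371 cells and 11 rose and 5 fell in GFP vector cells. Beside the shares of brighter genes given above, no excess is read from these counts. MITF, a relative of TFEB, fell by 1.09 and by 1.43, and TFE3, another relative, rose by 0.32 and 0.31. FNIP2, a partner of folliculin, fell by 1.10 and by 1.54.

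**Figure D5:**
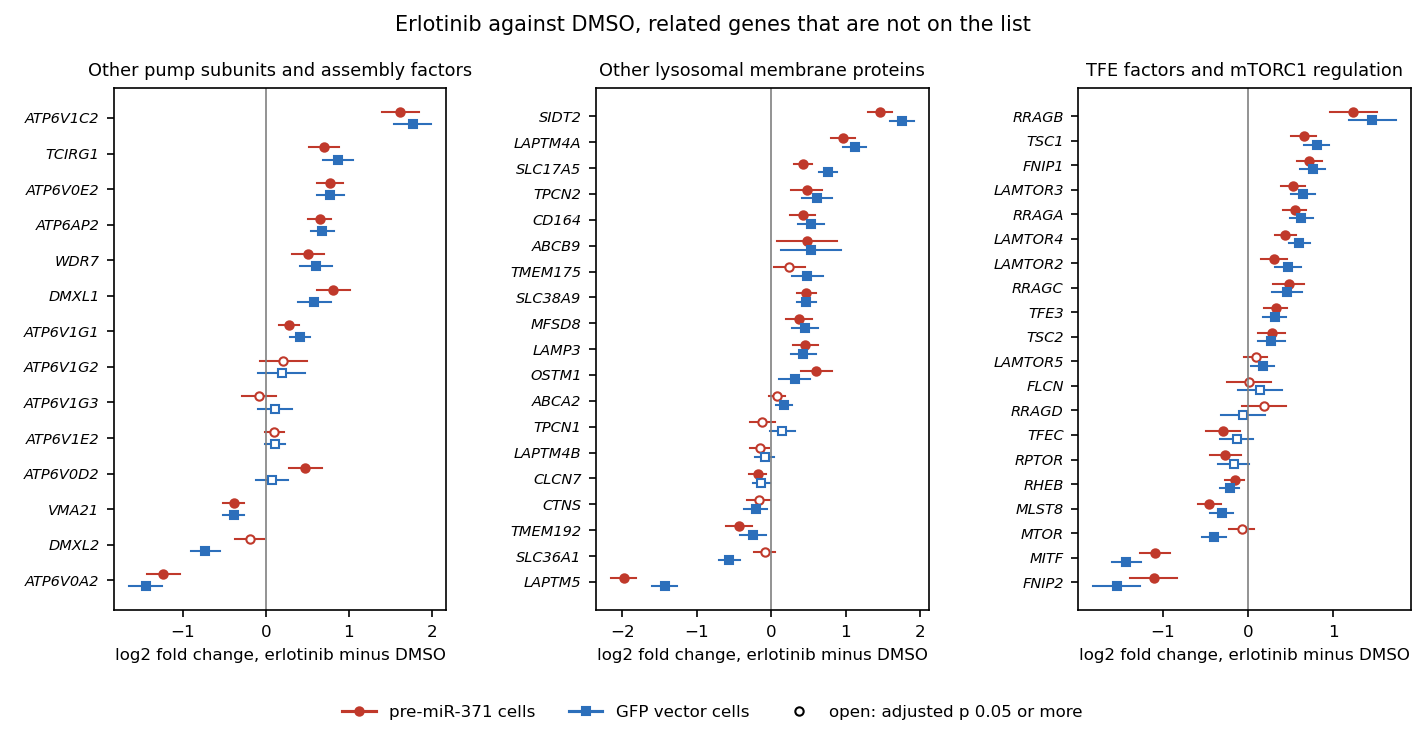
Log2 fold change of erlotinib against DMSO, with 95% confidence intervals, for pump subunits and assembly factors, membrane proteins and TFE or mTORC1 genes outside the list, in pre-miR-371 cells (red circles) and GFP vector cells (blue squares). Open symbols are genes with an adjusted p of 0.05 or more; changes of both signs occur in each set, with ATP6V1C2 at 1.62 and 1.77 and ATP6V0A2 at -1.23 and -1.44.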

How the data were processed

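Total RNA of PC9 lines was measured on 12 one-colour arrays, 3 in each of 4 groups. The authors deposited log2 expression values, 1 per probe set; their processing notes name RMA and affy, with versions not given in the sources used here, and the methods name quantile normalization. Arrays carry no read depth, and their number limits the precision. Probe sets were named from GEO's platform annotation: of 54675, 41097 had 1 symbol, 1801 had several and 11777 had none. Each gene was represented by its brightest probe set by mean over the 12 arrays, which gave 19775 genes. A model with 1 mean per group was fitted with limma 3.58.1 in R 4.3.3 (lmFit, eBayes), and p-values were Benjamini-Hochberg adjusted over all genes. The script was tested on simulated data. Named genes were the listed genes, those outside it with large changes or as relatives of TFEB being chosen after their values were seen. Members and lists were chosen with earlier results of these data known. Alternatives changed the choice of probe set, the filter, scaling, variance model, block and arrays used. Student's t-test, called the methods' t-test here, was also run, while for changed genes on the arrays the methods name limma. Promoter and miRNA sequences came from RefSeq (GRCh38.p14).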

Additional observations from a re-analysis of the deposited data

Results flagged for a closer look

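For 2 lysosome genes the erlotinib response differed between the lines by limma's test of the difference itself. The difference, pre-miR-371 minus GFP vector on the log2 scale, was -0.41 for CTSH (adjusted p = 0.0304) and -1.09 for ATP6V1B1 (adjusted p = 0.0431). CTSH rose in both lines, and less in the pre-miR-371 line. The value of ATP6V1B1 rests on DMSO readings of 3.14 to 4.22, below every array median, and its second probe set gave 0.14 (adjusted p = 0.782), so it does not show a smaller rise.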

How the results depend on the processing

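Without 1 array, 29 to 32 of the 42 lysosome genes rose with erlotinib in pre-miR-371 cells and 30 to 33 in GFP vector cells. With a fold over 1.5, 16 rose and 0 fell in pre-miR-371 cells, 20 rose and 1 fell in GFP vector cells, 0 were lower between the lines in DMSO or in erlotinib, and 1 difference of responses was negative. By the methods' t-test, 32 rose and 6 fell in pre-miR-371 cells (29 and 6 after Benjamini-Hochberg) and 31 rose and 3 fell in GFP vector cells (30 and 3).

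Calls between the lines depended more on the processing. In DMSO, 4 genes were lower. The count was 2 with the mean of all probe sets, with probe sets free of a suffix and with arrays centred on medians, 1 with every probe set tested, with only the groups compared and with repeated quantile normalization, and 13 among genes with a mean of at least 6, with a variance trend and with array weights. It was 15 at an unadjusted p, 16 and 0 by the methods' t-test before and after adjustment, and 1 to 4 without 1 array. None was higher in DMSO, against 1 with the replicate number as a block, 2 with a variance trend and 2 at an unadjusted p. In erlotinib, 17 genes were lower, against 26 among genes with a mean of at least 6, 27 with a variance trend, 29 at an unadjusted p, 27 and 13 by the methods' t-test before and after adjustment, and 13 to 18 without 1 array. The count of higher genes was 0, and 1 with probe sets free of a suffix, with repeated quantile normalization, by the methods' t-test before adjustment and at an unadjusted p. Of differences of responses, 2 were negative, against 0 with every probe set tested, 6 among genes with a mean of at least 6 and with repeated quantile normalization, 1 with centred arrays, 8 with a variance trend, 5 with array weights, 11 at an unadjusted p, and 0 to 2 without 1 array. None was positive, against 1 among genes with a mean of at least 6, with a variance trend and at an unadjusted p. The cause was not tested. Shares of all genes at an unadjusted p are not given here, so no excess is read from the unadjusted counts.

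ATP6V1E1 between the lines in erlotinib lost its call at -0.1806 with every probe set tested and with only the groups compared, at -0.1823 with centred arrays, and at -0.1888 to -0.1733 without 1 array. With the mean of all probe sets, ATP6V1A had -0.0855 for erlotinib in GFP vector cells. With probe sets free of a suffix, TPP1 had 0.0281 and HEXA 0.1649 between the lines in erlotinib, and 0.1065 and 0.0554 in DMSO.

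Medians by role moved as follows for erlotinib. Enzymes and carriers had 0.5293 in pre-miR-371 cells with the mean of all probe sets and with those free of a suffix, and 0.7251 and 0.6986 in GFP vector cells. Membrane proteins with TFEB had 0.3009 in pre-miR-371 cells with probe sets free of a suffix, 0.2094 with repeated quantile normalization and 0.2214 to 0.2962 without 1 array, and 0.1883 in GFP vector cells with centred arrays. The pump had 0.0546 in pre-miR-371 cells with the mean of all probe sets and 0.285 with repeated quantile normalization, and 0.1753, 0.3231 and, with centred arrays, 0.178 in GFP vector cells. Between the lines in erlotinib, membrane proteins had -0.1672 with probe sets free of a suffix. In DMSO, enzymes had -0.0452 with the mean of all probe sets, and membrane proteins and pump had -0.0654 and -0.0108 with repeated quantile normalization. The median difference of responses of membrane proteins was -0.1216 among genes with a mean of at least 6.

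Same-numbered arrays of different groups correlated in their deviations at r = -0.0568 to 0.198 over 18 pairs, 7 of them over 0.1, and in 8 the correlation was best with the same number. Between erlotinib and DMSO arrays of a line, it was best with the same number in every pair but GFP vector replicate 2 (r = -0.0161). The main fit did not take the numbers as pairs, and these correlations do not settle whether they are. With the replicate block, 30 genes rose and 6 fell in pre-miR-371 cells, 33 rose and 4 fell in GFP vector cells, and 17 were lower between the lines in erlotinib and 4 in DMSO.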
